A study of Mus musculus with 2 samples.

Results

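Hyperpolarization-activated cyclic nucleotide-gated (HCN) channels are cation channels of neurons and of heart pacemaker cells that open when the membrane becomes more negative and carry the current called Ih. Cyclic AMP binds their cytoplasmic tail and makes them easier to open. Pex5l, also called TRIP8b, is a brain protein that binds the carboxy-terminal end of HCN channels, controls how many of them reach the cell surface and reduces their response to cyclic AMP. It is a paralogue of Pex5, the receptor that carries proteins into peroxisomes, and its splice forms differ at the amino-terminal end and in what they do to channel trafficking.

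The genes described are Hcn2, Hcn3, Hcn4 and Pex5l, 4 of 43346 gene rows, chosen by symbol and found once each in both gene tables. Of the HCN family, Hcn2, Hcn3 and Hcn4 were analysed. The series measured polyadenylated RNA longer than 200 nucleotides by stranded paired-end sequencing of cortex (labelled cortical plate) from 8-week-old adult C57BL/6J mice, with littermates of both sexes pooled. It has 1 group of 2 libraries, called biological replicates 1 and 2, and no treatment, genotype or second tissue. How many animals were pooled is not given in the sources used here. The p-values below therefore compare the reads of these 2 libraries and no conditions, and the spread between the libraries is the only replicate error.

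The gene tables summed to 91875460 and 92939474 expected counts in replicates 1 and 2, spike-ins included. The labelled tissue was checked by marker genes. Of 6 excitatory cortical markers, 6 were at or above 1 TPM, a length-scaled share of all transcripts, and the 2 most abundant, Nrgn and Camk2a, stood at 1407 and 956 TPM in replicate 1 and at 1237 and 812 TPM in replicate 2. Of 5 markers of heart muscle, where Hcn4 is also used, 2 reached 1 TPM. These were Tnnt2, at 8.44 TPM in replicate 1 and 7.98 TPM in replicate 2, and Myh7, at 3.94 and 3.06 TPM. Myh6 was at 0.01 TPM in both libraries. Markers of striatum and hippocampus differed between the libraries, and their values stand beside the library ratios.

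Hcn2 and Pex5l were the most abundant of the 4 genes, at nearly equal levels per unit of length. Hcn2, a subunit found widely in the brain, had 69.9 TPM in replicate 1 and 61.0 TPM in replicate 2, a mean of 65.4 ± 6.25 TPM (SD, n = 2). Pex5l had 68.9 TPM in replicate 1 and 56.1 TPM in replicate 2, a mean of 62.5 ± 9.08 TPM (SD, n = 2). Hcn2 ranked 1660 and Pex5l 1694 among all gene rows in replicate 1, and they ranked 1720 and 1868 in replicate 2. The log2 difference of Hcn2 over Pex5l in TPM was 0.02 in replicate 1 and 0.12 in replicate 2, which is within 2 SD of 0, so these neighbours did not differ beyond their spread. Without division by length, and in the deposited mm9 values, Hcn2 lay above Pex5l by more than that spread (mean log2 differences of 0.23 and 0.18).

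Hcn3, a subunit that responds weakly to cyclic AMP, had 7.74 TPM in replicate 1 and 7.18 TPM in replicate 2 (7.46 ± 0.40 TPM, SD, n = 2). Hcn4, the main pacemaker subunit of the sinoatrial node, had 0.37 TPM in replicate 1 and 0.52 TPM in replicate 2 (0.45 ± 0.11 TPM, SD, n = 2). Both neighbouring steps were beyond the spread: Pex5l over Hcn3 averaged 3.06 on the log2 TPM scale, an 8.34-fold step, and Hcn3 over Hcn4 averaged 4.09, a 17.0-fold step. Of the summed TPM of the 3 HCN genes analysed, 78.0 TPM in replicate 1 and 68.7 TPM in replicate 2, Hcn2 made up 89.6% and 88.8%. Hcn3 made up 9.93% and 10.4%, and Hcn4 0.475% and 0.757%. These are shares of the analysed genes and not of the whole HCN family. The Hcn3 level includes 1.54 TPM in replicate 1 and 1.66 TPM in replicate 2 from Hcn3-202, a short noncoding model. The order Hcn2, Pex5l, Hcn3, Hcn4 was the same in each library taken alone.

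**Figure D1:**
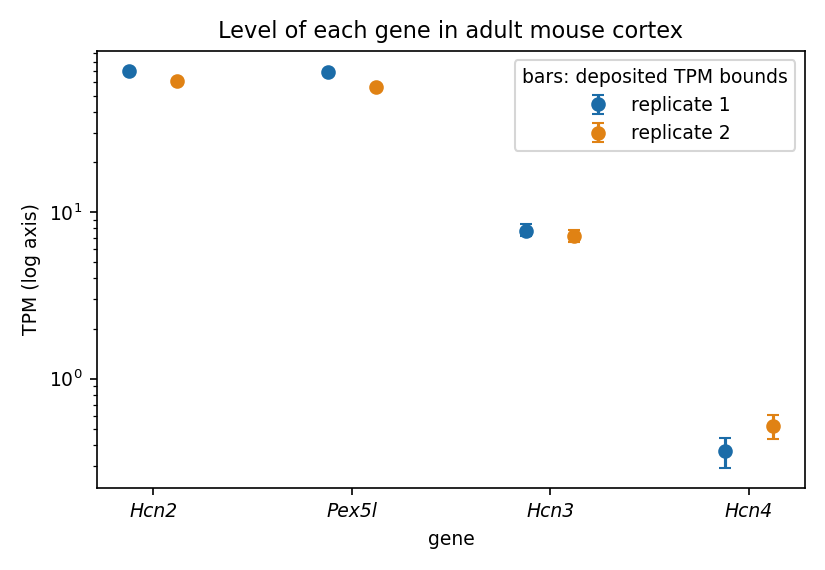
Level of Hcn2, Pex5l, Hcn3 and Hcn4 in TPM (log axis) in replicate 1 (left point of each pair) and replicate 2 (right point). Bars span the deposited TPM bounds, whose level is not stated. Hcn2 and Pex5l lie between 56.1 and 69.9 TPM, Hcn3 near 7.46 TPM and Hcn4 near 0.45 TPM.

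The second deposited quantification, made on the mm9 assembly, gave the same order in RPKM, reads scaled to gene length and depth. Its 2 columns are not tied to a replicate by name. Hcn2 had 9.38 and 8.39 RPKM, Pex5l 8.64 and 7.09 RPKM, Hcn3 0.983 and 0.886 RPKM, and Hcn4 0.0541 and 0.0753 RPKM. The RPKM values are on another scale than the TPM values and were not compared with them in size.

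Hcn2 lies on chromosome 10 (79716634 to 79736108, plus strand, mm10), Hcn3 on chromosome 3 (89146074 to 89160196, minus strand), Hcn4 on chromosome 9 (58823412 to 58863175, plus strand) and Pex5l on chromosome 3 (32949408 to 33143247, minus strand). No 101-nucleotide stretch of their leading transcripts occurs in a transcript of another gene or of another of the 4 genes, and their expected counts were whole numbers in both libraries. Hcn3 overlaps the end of Pklr on the opposite strand by 711 nucleotides, and Pklr had 3 and 7 expected counts in replicates 1 and 2. Polrmt runs towards Hcn2 on the opposite strand, and the ends of these 2 genes lie 14 nucleotides apart, without overlap. On the opposite strand, Gm37459 overlaps Pex5l and runs past its 3′ end, and 4930419G24Rik lies within it. Both had at most 9 expected counts in a library. The same-strand genes Gm37443 and Gm19445, within Pex5l, had 153 and 211 expected counts in replicate 1 and 134 and 246 in replicate 2. Pex5l had 12584 and 11089. Junction reads of the opposite strand inside the gene were 0.05% of all junction reads for Hcn2, 0.16% for Hcn3, 2.5% for Hcn4 (2 reads) and 0.037% for Pex5l. One further opposite-strand junction, with 40 and 48 reads in the 2 columns of the mm9 junction table, has an intron that crosses the Hcn2 start (79179260 to 79179560 of chromosome 10, mm9), where Hcn2 intron 1 had 705 reads.

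The 3 HCN genes analysed share an exon plan in their leading transcripts. Each has 8 exons, and exons 3 to 7 are 162, 219, 147, 241 and 165 nucleotides long in all 3 genes. Exon 2 is 424 nucleotides in Hcn2 and Hcn4 and 430 nucleotides in Hcn3. The genes differ most at the ends: exon 1 is 586 nucleotides in Hcn2, 412 in Hcn3 and 885 in Hcn4, and exon 8 is 1251, 2226 and 3875 nucleotides. These lengths are from GENCODE M21, where Hcn4-201 has 6118 nucleotides. The Hcn4-201 model behind the deposited TPM and counts (GENCODE M4) has 3798 nucleotides, so those values do not cover all of exon 8. The ends of the reading frames are shown because the last residues of HCN channels are the part that the Pex5l repeat domain holds. The sequences are the last 30 coding bases before the stop codon in GENCODE M21 (GRCm38), 5′ to 3′, with the last 3 codons in capitals.
Hcn2, chr10:79735508-79735537, plus strand: tctgcgcgctcgcgcctctctTCCAACTTG
Hcn3, chr3:89147602-89147631, minus strand: cccagaggtccccaaatttctGCCAACATG
Hcn4, chr9:58860731-58860760, plus strand: ccagtacgctccaaactgccgTCTAATTTA
Counting from 1 at the 5′ end of these 30 bases, with the Hcn2 base first, Hcn4 differs from Hcn2 in the capital part at C24T, C27T and G30A, all at the third base of a codon. Hcn3 differs there at T22G and T28A, both at the first base of a codon. Over the 30 bases Hcn3 differs from Hcn2 at 15 and Hcn4 at 14.

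One transcript carried nearly all Hcn2. Hcn2-202, a coding transcript of 3195 nucleotides, took 99.0% of Hcn2 TPM in replicate 1 and 99.7% in replicate 2. Hcn2-201, the other coding transcript, took the rest, 0.97% and 0.31%. The junction reads of Hcn2 were 332 and 373 for intron 1 in the 2 mm9 columns, 1438 and 1403 for intron 4, and 1184 and 987 for intron 7, so reads per junction were lowest at the 5′ end.

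Hcn3-201, the full-length coding transcript, took 80.1% of Hcn3 TPM in replicate 1 and 76.9% in replicate 2. Hcn3-202, a model of 533 nucleotides with a retained intron, took 19.9% and 23.1%. That share rested on few reads, 34.6 expected counts in replicate 1 and 39.9 in replicate 2, against 1594 and 1556 for Hcn3-201. The mm9 quantification gave the same model 5.84% and 4.43% of the Hcn3 RPKM, so the share differs between the deposited tables by more than the spread within either. Hcn3 junction reads ran from 47 over both columns at intron 3 to 175 at intron 7. Hcn4 has a single transcript model, and its 89 and 138 expected counts in replicates 1 and 2 came with 78 junction reads, from 4 at intron 2 to 25 at intron 6.

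Pex5l was spread over many transcript models. Of 12 models, 7 took a mean share of at least 5% of Pex5l TPM. Of the models, 11 begin at either of 2 places: a distal first exon, or a proximal group of first exons 60.8 kb downstream. The distal first exon ends at position 33142849 of chromosome 3, except in Pex5l-212, an unspliced model that runs on past it. Pex5l-203 begins further downstream and was listed at 0 TPM in both libraries. Between a first exon and an exon of 112 nucleotides that follows, an exon of 72 and an exon of 105 nucleotides can each be included. The coding starts of Pex5l-206 (distal) and Pex5l-205 (proximal) and the 2 optional exons are shown because they set the amino-terminal end of the protein. Pex5l-204 uses a later start in the proximal exon, with 18 coding bases there. The sequences are from GENCODE M21 (GRCm38), all on the minus strand and 5′ to 3′, with the start codon in capitals.
Distal coding start, chr3:33142849-33142869: ATGtaccagggacacatgcag
Proximal coding start, chr3:33081976-33082068: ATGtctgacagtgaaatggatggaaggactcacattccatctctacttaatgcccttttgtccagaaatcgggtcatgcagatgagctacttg
72-nucleotide exon, chr3:33080465-33080536: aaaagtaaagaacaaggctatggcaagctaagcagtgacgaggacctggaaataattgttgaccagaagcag
105-nucleotide exon, chr3:33024696-33024800: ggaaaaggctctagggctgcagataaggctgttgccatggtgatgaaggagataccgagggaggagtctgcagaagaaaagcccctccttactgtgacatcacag
All 4 stretches are multiples of 3 bases long, 21, 93, 72 and 105, so every combination enters the 112-nucleotide exon in the same frame. A further choice lies 3′ of these, where an exon of 124 nucleotides can begin 3 bases earlier. The extra bases are in capitals in the first 30 bases of the longer, 127-nucleotide form.
127-nucleotide form, chr3:33006017-33006046: TAGacattcaaacacaactggaaaaatggg
In Pex5l-204 this exon follows 397 coding bases, so the 3 extra bases fall across 2 codons and do not form a codon of their own.

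Pex5l-205, a coding model with a proximal start and the 72-nucleotide exon, led in both libraries. It took 34.1% of Pex5l TPM in replicate 1 and 35.6% in replicate 2. Pex5l-206, a coding model that joins the distal first exon straight to the 112-nucleotide exon, took 20.8% and 16.8%. The lead of Pex5l-205 over Pex5l-206 was 13.3 percentage points in replicate 1 and 18.9 in replicate 2, beyond 2 SD of its spread. Pex5l-202, with a distal start, both optional exons and a retained intron, took 10.03% and 9.39%, and Pex5l-209, with a proximal start and both optional exons, took 9.26% and 8.70%. Pex5l-204, which like Pex5l-202 has the 127-nucleotide form, took 7.86% and 9.20%. Pex5l-207, a short noncoding model of the distal start, took 5.84% and 7.61%, and Pex5l-211, with a proximal start and both optional exons, took 5.18% and 5.36%. Summed over all models, the distal start held 39.5% of Pex5l TPM in replicate 1 and 37.3% in replicate 2, and the proximal start 60.5% and 62.7%. The distal sum includes the unspliced Pex5l-212, at 2.75% and 3.58%.

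**Figure D2:**
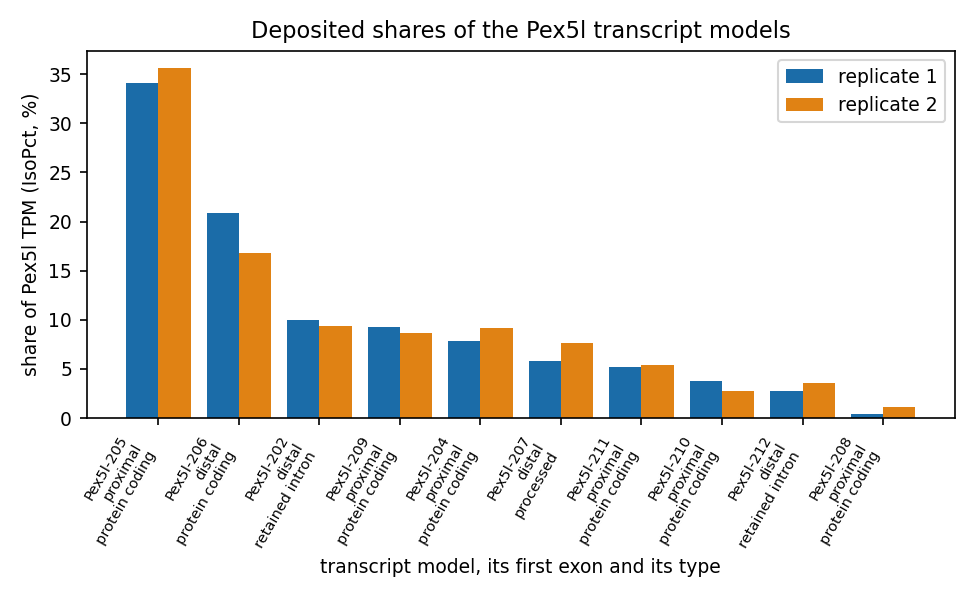
Share of Pex5l TPM (percent, IsoPct) given to each transcript model with a share above 0, in replicate 1 (left bar) and replicate 2 (right bar); labels give the first exon and the annotated type. Pex5l-205 leads with 34.1% and 35.6%, followed by Pex5l-206 with 20.8% and 16.8%.

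The junction reads gave another picture of the start of Pex5l. They were counted on mm9, in 2 columns not tied to a replicate, and were named here by intron length, which matches a pair of exons of the mm10 models. The junction of the distal first exon to the 105-nucleotide exon had 210 and 174 reads, although none of the 12 transcript models joins those exons. It was as frequent as the junction of the distal first exon to the 112-nucleotide exon, with 193 and 200 reads, which is in a model. The distal first exon was joined to the 72-nucleotide exon by 47 and 44 reads. Several proximal exons end at 1 shared position, which was joined to the 72-nucleotide exon by 125 and 143 reads. A 28-nucleotide exon among them was itself entered from another proximal exon by 48 and 52 reads, so it is not always a first exon.

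**Figure D3:**
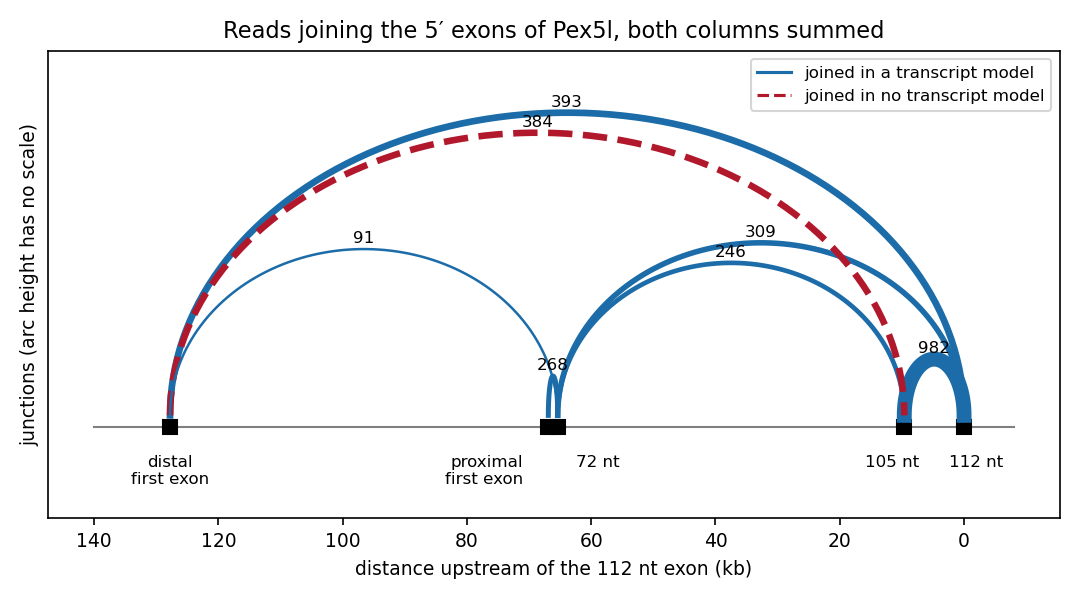
Junction reads among the 5′ exons of Pex5l, both columns summed, drawn as arcs whose width follows the read number printed on them. The horizontal axis is the distance in kb upstream of the 112-nucleotide exon. The dashed arc, 384 reads from the distal first exon to the 105-nucleotide exon, joins exons that no transcript model joins.

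Seen from the distal first exon, 43.7% and 37.8% of its outgoing reads in the 2 columns went to the 105-nucleotide exon, 40.1% and 43.5% to the 112-nucleotide exon and 9.8% and 9.6% to the 72-nucleotide exon. An exon of the short noncoding model Pex5l-207 took most of the rest, 4.6% and 5.2%. Seen from the 105-nucleotide exon, 61.4% and 55.2% of the incoming reads came from the distal first exon and 34.5% and 40.6% from the 72-nucleotide exon. The 112-nucleotide exon was entered from the 105-nucleotide exon by 60.6% and 53.4% of reads, from the distal first exon by 22.0% and 23.7%, and from the 72-nucleotide exon by 15.4% and 20.6%. Of the reads into the 72-nucleotide exon, 68.7% and 72.6% came from the shared end of the proximal exons and 25.8% and 22.3% from the distal first exon. Of those leaving it, 49.8% and 55.4% went to the 112-nucleotide exon and 43.5% and 40.8% to the 105-nucleotide exon. A smaller set began at another proximal exon: 66.7% and 74.3% of its 72 and 70 reads joined a 28-nucleotide proximal exon, and 11.1% and 11.4% went straight to the 72-nucleotide exon.

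Taken as shares, most junction reads counted for the start of Pex5l came from the distal first exon. They were 77.2% (95% Wilson interval 73.6 to 80.4) and 73.5% (69.7 to 76.9) in the 2 columns. For these shares, reads from exons outside the annotation were left out, so that entries into the 112-nucleotide exon have a slightly smaller total than above. The start share counts reads from the distal first exon into the 72-, 105- or 112-nucleotide exon against reads from the proximal exons into the 72-nucleotide exon. Reads entering and leaving that last exon were not balanced, with 182 and 197 into it and 271 and 314 out of it. Proximal starts were counted only at its entry, so the start share is of junction reads and not of transcripts. The transcript models with the 112-nucleotide exon put 33.8% of their TPM at the distal start in replicate 1 and 29.4% in replicate 2. The junction mean was thus 43.7 percentage points above the model mean, where the SD was 2.63 points between columns and 3.06 points between replicates. Inclusion of the 105-nucleotide exon stood at 61.8% (58.5 to 64.98) and 54.6% (51.2 to 58.0) by junctions, and at 30.9% and 29.5% by models. The junction share counts only reads leaving that exon, 532 and 450 into the 112-nucleotide exon. Fewer reads entered it, 342 and 315, so the size of this gap depends on the side counted. Direct joining of the distal first exon to the 112-nucleotide exon differed little between the measures, at 22.4% and 24.3% by junctions and 22.8% and 18.9% by models, a mean difference of 2.51 points where the SD was 1.31 points between columns and 2.78 points between replicates. The 127-nucleotide form held 26.9% (23.4 to 30.6) and 31.7% (27.8 to 35.8) of its junction reads, against 19.6% and 20.9% by models. These intervals hold counting error alone, because the reads carry no molecular identifiers and may copy one another.

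**Figure D4:**
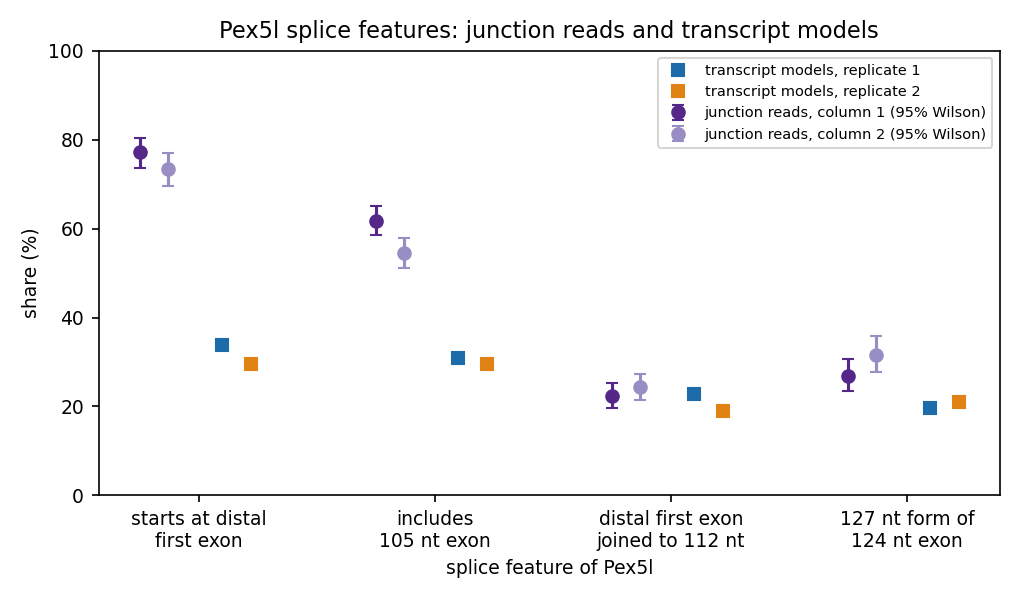
Shares (percent) of 4 splice features of Pex5l: by junction reads in 2 columns (circles, bars are 95% Wilson intervals) and by transcript models in replicates 1 and 2 (squares). The distal start lies at 77.2% and 73.5% by junctions and at 33.8% and 29.4% by models, and the direct join to the 112-nucleotide exon overlaps between the measures.

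With only the junctions that a model holds, the distal start had 64.4% of reads, still above the models. The mm9 transcript table put 29.2% and 22.2% there. The part that the join missing from the models plays in the gap was not tested.

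Between the 2 libraries, Pex5l was higher and Hcn4 lower in replicate 1, while Hcn2 and Hcn3 did not pass the test. Counts were scaled to the TMM effective library sizes, and ratios are replicate 1 over replicate 2. By the exact binomial test with Benjamini-Hochberg adjustment over 19829 genes, 28.7% of all genes passed at 0.05, 14% as higher and 14.7% as lower in replicate 1. Against that background, 2 of 4 genes passing is a small count from which nothing particular to them can be read.

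Pex5l was counted 12584 times in replicate 1, against 11089 times in replicate 2 (ratio 1.11, 95% Clopper-Pearson interval 1.08 to 1.14, adjusted p = 6.55e-15, exact binomial test). Hcn2 was counted 14150 times in replicate 1, against 13534 times in replicate 2 (ratio 1.03, interval 1.00 to 1.05, adjusted p = 0.11, exact binomial test). Hcn3 was counted 1629 times in replicate 1, against 1596 times in replicate 2 (ratio 1.00, interval 0.934 to 1.07, adjusted p = 1, exact binomial test). Hcn4 was counted 89 times in replicate 1, against 138 times in replicate 2 (ratio 0.632, interval 0.479 to 0.831, adjusted p = 0.0039, exact binomial test). The absolute log2 ratio of Hcn4, 0.66, exceeded that of 97.7% of the 15723 genes that reached 100 counts in the summed libraries. The Pex5l change, 0.15, exceeded that of 72.0% of them. The genes of that set were not matched in depth. With 89 and 138 counts, Hcn4 carries more counting error than deeply counted genes, so its place does not show an unusually large change.

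When the noise was widened to the biological coefficient of variation of the pair, 0.0905, 1.07% of genes passed and none of the 4 did, with adjusted p = 0.43 for Hcn4 and 1.00 for Pex5l by a two-sided normal test across all genes. That coefficient was estimated from these 2 libraries. TPM ratios run higher than these, because TPM shifts the median log2 ratio of all genes to 0.15 against 0.00 with TMM. A gene called lower in replicate 1 below can therefore have the higher TPM there, and calls with TPM ratios are given where they turn the direction of a list. With TPM ratios 10682 genes passed, 9680 as higher and 1002 as lower in replicate 1, so many higher calls by TPM ratios are not particular to a list. List counts with TMM stand beside the 28.7% of all genes that passed.

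Regional and cell type markers moved with the libraries. All 10 striatal markers were lower in replicate 1, where their TPM summed to 150, against 443 in replicate 2; the most abundant, Ppp1r1b and Penk, had 69.7 and 26.4 TPM in replicate 1 and 159 and 110 TPM in replicate 2. All 5 hippocampal markers were higher in replicate 1, with sums of 20.2 TPM in replicate 1 and 6.86 TPM in replicate 2, led by C1ql2 and Fibcd1 at 6.49 and 6.21 TPM in replicate 1, against 1.31 and 2.43 TPM in replicate 2. All 6 oligodendrocyte markers were lower in replicate 1, with a median log2 ratio of -0.43; Mbp had 1815 TPM in replicate 1 and 2220 TPM in replicate 2. Of 6 excitatory markers 4 were higher in replicate 1 and none lower, with a median log2 ratio of 0.06. Of 6 thalamic markers tested, 3 were lower and none higher in replicate 1 (none lower and 2 higher with TPM ratios), with sums of 57.3 TPM in replicate 1 and 54.0 TPM in replicate 2; Ramp3 had 20.1 TPM in both libraries, Rora 12.1 TPM in replicate 1 and 11.6 TPM in replicate 2, and Gbx2 was listed at 0 and 0.07 TPM. The part of these markers in the ratios of Hcn4 and Pex5l was not tested. In bulk tissue, fewer cells of a type and less RNA per cell cannot be told apart.

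Among the other marker lists, 4 of 6 interneuron markers were lower in replicate 1 and none higher (none lower and 2 higher with TPM ratios, 2 lower with plain totals), led in level by Sst at 453 TPM in replicate 1 and 427 TPM in replicate 2 and Gad1 at 171 TPM in both. Of 6 upper-layer markers none passed (4 higher with TPM ratios), with Lhx2 at 45.6 TPM and Rasgrf2 at 43.9 TPM in replicate 1 and at 40.8 and 39.8 TPM in replicate 2. Of 7 deep-layer markers 2 were higher and 4 lower in replicate 1 (3 higher and 1 lower with TPM ratios), with Crym at 39.2 TPM in replicate 1 and 32.7 TPM in replicate 2 and Fezf2 at 20.7 and 16.0 TPM. Of 5 astrocyte markers 1 was higher and 3 were lower (5 higher and none lower with TPM ratios), with Aldoc at 880 TPM in replicate 1 and 820 TPM in replicate 2 and Slc1a2 at 418 and 388 TPM. Of 5 microglia markers 2 were higher and none lower, with C1qa at 52.8 TPM in replicate 1 and 45.0 TPM in replicate 2 and Csf1r at 39.3 and 33.9 TPM. Of the 3 heart muscle markers tested 1 was higher in replicate 1, Myh7, at 3.94 TPM in replicate 1 and 3.06 TPM in replicate 2, and Tnnt2 had 8.44 and 7.98 TPM.

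**Figure D5:**
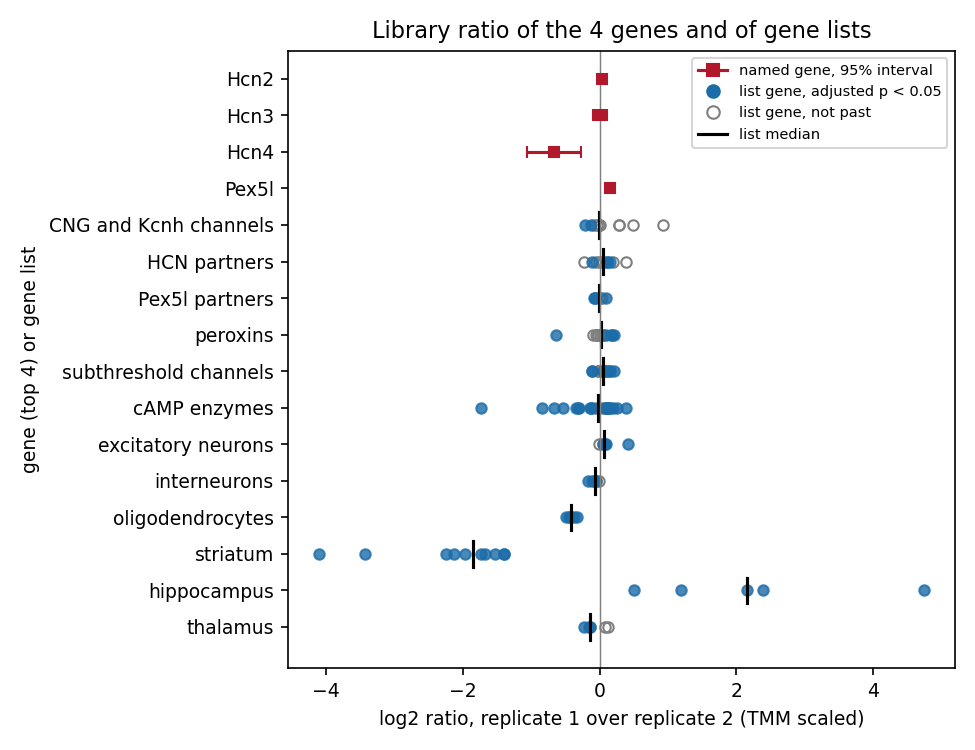
Log2 ratio of replicate 1 over replicate 2, TMM scaled, for the 4 genes (squares with 95% Clopper-Pearson intervals) and for genes of 12 lists (filled circles passed the exact binomial test, open circles did not, vertical ticks are list medians). Hcn4 lies at -0.66 and Pex5l at 0.15, between striatal genes with a median of -1.86 and hippocampal genes with a median of 2.15.

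The CNG and Kcnh channels are relatives of the HCN channels, with a cyclic nucleotide binding domain (CNG) or a domain homologous to it (Kcnh). Of 14 genes, 11 were tested, 2 were lower in replicate 1 and none was higher (none lower and 5 higher with TPM ratios), and the median log2 ratio was 0.00, as for all genes. Kcnh3 and Kcnh1, voltage-gated potassium channels, were the most abundant, at 89.2 and 17.1 TPM in replicate 1 and 79.9 and 15.3 TPM in replicate 2. Kcnh5 (5.49 TPM in replicate 1, 5.67 TPM in replicate 2) and Kcnh4 (12.8 and 12.6 TPM) were the genes that passed, with log2 ratios of -0.21 and -0.13.

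Among 11 genes described as HCN partners, 3 were higher and 1 was lower in replicate 1 (8 higher and none lower with TPM ratios), with a median log2 ratio of 0.05. Apba2, an adaptor also called Mint2, had 111 TPM in replicate 1 and 93.2 TPM in replicate 2 and the largest ratio that passed (log2 0.15). Kctd3, a cytoplasmic partner of Hcn3 channels, had 50.3 TPM in replicate 1 and 43.0 TPM in replicate 2 (log2 0.11). Vapa, a membrane contact site protein, had 89.1 TPM in replicate 1 and 86.3 TPM in replicate 2 and was the gene that was lower (log2 -0.11).

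Of 7 genes for Pex5l partners in vesicle traffic, 1 was higher and 3 were lower in replicate 1, with a median of -0.01. With TPM ratios all 7 were higher, as were 90.6% of all the genes called with those ratios. Ap2m1 and Ap2s1, subunits of the AP-2 clathrin adaptor, were the most abundant, at 565 and 287 TPM in replicate 1 and 518 and 277 TPM in replicate 2. Ap2a2, another subunit, was the one that was higher (log2 0.10). Rab8b, the small GTPase that gave TRIP8b its name, had 9.72 TPM in replicate 1 and 8.51 TPM in replicate 2.

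Of 16 peroxins, 4 were higher and 1 was lower in replicate 1, with a median of 0.02. Pex5, the paralogue of Pex5l, had 33.2 TPM in replicate 1 and 26.5 TPM in replicate 2 and passed as higher (log2 0.09, adjusted p = 0.0143 by the exact binomial test). Pex19, needed for membrane protein insertion, led in level with 47.9 TPM in replicate 1 and 42.5 TPM in replicate 2. Pex11g, at 0.48 TPM in replicate 1 and 0.72 TPM in replicate 2, and Pex11a, at 6.51 and 5.44 TPM, had the largest ratios that passed (log2 -0.64 and 0.21).

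Of 15 other channels active near the resting potential, 6 were higher and 2 lower in replicate 1 (14 higher and none lower with TPM ratios), with a median of 0.06. The T-type calcium channel genes Cacna1h (27.3 TPM in replicate 1, 19.6 TPM in replicate 2) and Cacna1g (87.1 and 67.6 TPM) had the largest ratios, log2 0.21 and 0.15. Kcnj9, a G-protein-gated potassium channel, had 98.5 TPM in replicate 1 and 83.6 TPM in replicate 2.

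Of 24 enzymes of cyclic AMP synthesis and breakdown tested, 9 were higher and 10 lower in replicate 1, with a median of -0.02, where 28.7% of all genes passed in either direction. With TPM ratios 12 were higher and 5 lower. Adcy1, a calmodulin-stimulated adenylyl cyclase, had 119 TPM in replicate 1 and 89.3 TPM in replicate 2 and was higher (log2 0.25). Pde1b, a phosphodiesterase, had 60.1 TPM in replicate 1 and 85.4 TPM in replicate 2 (log2 -0.67). Pde10a, which is also on the striatal list, and Adcy5 had the largest ratios, log2 -1.74 and -0.84. Pde10a had 12.3 TPM in replicate 1 and 34.1 TPM in replicate 2, and Adcy5 28.6 and 45.9 TPM.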

How the data were processed

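The deposited mm10 tables hold, per the file headers and the deposited README, expected counts, TPM, FPKM and each transcript's share of its gene's TPM in percent (IsoPct), computed by the authors with GENCODE M4; the program is not given in the sources used here. Deposited mm9 tables (Ensembl 65) hold RPKM and junction reads in columns not tied to replicates. Symbols came from GENCODE M21 (98.0% of gene rows matched). Rows that name no gene, spike-ins included, were 3.86% and 4.62% of counts in replicates 1 and 2 and stayed out of the tests.

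Expected counts were rounded, scaled by TMM (edgeR 4.0.16) and compared between the libraries by an exact two-sided binomial test (scipy 1.17.1) on genes whose summed count reached 10, adjusted by Benjamini-Hochberg at 0.05. Log2 ratios add 0.5 counts. Levels differed beyond spread when the mean log2 difference exceeded 2 SD with the same sign in both libraries. Junction sets needed 20 reads per column. Alternatives used DESeq2 1.42.0 size factors, plain totals, TPM ratios, other count filters and widened noise. Named list genes are the 2 most abundant of each list and, of pathway lists, the 2 with the largest ratio that passed; Pex5, Rab8b and single genes added beside these, as well as the exon comparisons of Pex5l, were chosen after values were seen. The genes and lists were chosen with earlier results of these data known. Some list genes that this rule names are not reported here. Protein sequences were not used here. Whether the 2 libraries came from separate animals is not given beyond the label of biological replicates.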

Additional observations from a re-analysis of the deposited data

How the results depend on the processing

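No paired analysis was possible because the series has 1 group. Of the library ratios, those of Hcn3, Hcn4 and Pex5l kept direction and side of the threshold under the other scalings and filters. Widened noise ended the calls of Hcn4 (log2 -0.66) and Pex5l (log2 0.15), and called 213 genes, against 5695. Hcn2 passed with plain totals (log2 0.069) and with TPM ratios (log2 0.19); TPM ratios called 10682 genes. Of the calls, 48.7% were higher in replicate 1 with TMM, 66.8% with plain totals and 90.6% with TPM ratios. With TPM ratios 5 pathway lists called more genes: 5 CNG and Kcnh channels, 8 HCN partners, 7 Pex5l partners, 11 peroxins and 14 subthreshold channels, against 2, 4, 4, 5 and 8; the cyclic AMP enzymes called 17, against 19. Hcn2 over Pex5l went beyond its spread without division by length (log2 0.23) and in mm9 RPKM (log2 0.18). With 2 libraries, leaving out each in turn only returns the value of the other, so it adds no separate check. Those values per library were 0.02 to 0.12 for Hcn2 over Pex5l, 2.96 to 3.15 for Pex5l over Hcn3 and 3.79 to 4.39 for Hcn3 over Hcn4 (log2). The distal start of Pex5l fell to 64.4% of junction reads with only annotated junctions, and to the same 64.4% with only junctions held by a transcript model, a setting chosen after seeing the data; by construction both drop the 384 reads into the 105-nucleotide exon. Depth limits Hcn4 most, with 89 and 138 counts and 78 junction reads.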
